A study of Mus musculus with 3 samples.

Results

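The transcription factors that give the pancreatic beta cell its identity are described here through 10 genes, Pdx1, Mafa, Nkx6-1, Nkx2-2, Neurod1, Insm1, Isl1, Pax6, Foxa1 and Foxa2. They were chosen by name, and each of the 10 matched 1 line among the 21899 gene symbols of the expression table. The RNA came from MIN6, a line grown from a mouse insulinoma that still makes insulin and is used as a stand-in for the beta cell, and was sequenced in 3 libraries of 1 group each. Cells were transfected with an siRNA against Srsf1 (siSRSF1, also labelled siASF-1), with an siRNA against Srsf2 (siSRSF2, also labelled siSC35_1) or with a negative control siRNA (siNC), and all groups share the line and the transfection. SRSF1 and SRSF2 are SR proteins, which bind exons and promote the splicing of pre-mRNA. The sources used here do not give the time after transfection or the siRNA sequences, and an insulinoma line is a tumour line and not an intact islet. No group has a replicate, so no difference below has a replicate check, no test between groups was possible, and every interval is a 95% counting interval of these libraries only.

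Beta-cell identity rests on a network of factors that bind the insulin gene and one another's genes. PDX1, MAFA and NEUROD1 bind neighbouring elements of the insulin promoter and activate it, NKX6-1, NKX2-2 and INSM1 act largely as repressors that keep other islet and progenitor programmes off, and ISL1 and PAX6 serve several islet cell types. FOXA1 and FOXA2 are pioneer factors, which open chromatin for the others and act early in pancreas development.

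The libraries held 14478045 reads in siSRSF1, 14682576 in siSRSF2 and 12688334 in siNC, and the 10 genes took 0.344%, 0.322% and 0.239% of them. Srsf1 had 3171 reads in siSRSF1 and 4070 in siNC, a scaled ratio of 0.683 (0.652 to 0.716). Srsf2 had 487 reads in siSRSF2 and 1193 in siNC, a ratio of 0.343 (0.308 to 0.381). Srsf1 also lay below siNC in siSRSF2, at 0.847 (0.811 to 0.884), so that siSRSF1 stood at 0.807 (0.770 to 0.846) of siSRSF2, and the difference in Srsf1 was short of 2-fold in each case. Srsf2 stood at 0.957 (0.884 to 1.04) of siNC in siSRSF1. The 7 beta-cell markers, Pdx1, Mafa and Nkx6-1 among them, were all detected in each library, Slc2a2 with only 7 reads in siSRSF2. Their summed level was 45963, 52864 and 48075 CPM (reads scaled by library size) in siSRSF1, siSRSF2 and siNC. Most of that sum came from Ins2 (25199, 33985 and 25048 CPM) and Iapp (16532, 14550 and 20144 CPM). The 14 markers of other islet cells summed to 5978, 6216 and 3026 CPM, nearly all of it from Cck, the cholecystokinin gene, at 5811, 6064 and 2882 CPM. Cck was thus higher in the siRNA libraries, as several of the 10 genes are below, and its part in those ratios was not tested. The other hormone genes did not share one direction. Irx1, a factor of alpha cells, and Neurog3, the factor of endocrine progenitors, had 0 reads in every library, while Gcg, the glucagon gene, had 2016, 2029 and 1494 reads. Sst, the somatostatin gene, had 339, 199 and 262 reads, with a ratio to siNC of 1.13 (0.963 to 1.34) in siSRSF1 and 0.638 (0.528 to 0.770) in siSRSF2, and Ppy had 22, 11 and 16 reads. Of 15 exocrine and ductal markers, 5 (Ptf1a, Cela2a, Cpa1, Prss2 and Ctrb1) had 0 reads in every library, and the list summed to 171.4, 224.7 and 235.4 CPM. The 8 markers of other cells summed to 19.3, 6.21 and 7.80 CPM, with the macrophage gene Cd68 at 232, 55 and 56 reads.

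The genes differ in how they are built, and this structure is given first because the read ratios below are set beside it. Per GENCODE M21 (GRCm38), Insm1 and Mafa have 1 exon each and therefore no intron. Pdx1, Nkx2-2, Neurod1 and Foxa1 have 2 exons in the transcript used here, Nkx6-1 and Foxa2 have 3, Isl1 has 6 and Pax6 has 13. The GC content of that transcript was highest in Mafa (65.0%), Insm1 (62.0%) and Nkx6-1 (59.0%), and lowest in Neurod1 (43.6%), Isl1 (45.7%) and Pax6 (52.4%). The other 4 genes lay between 54.2% (Foxa1) and 57.0% (Foxa2). Insm1 (ENSMUSG00000068154) lies on chromosome 2 from 146221921 to 146225020 and Mafa (ENSMUSG00000047591) on chromosome 15 from 75745490 to 75748228, while Nkx6-1 (ENSMUSG00000035187) lies on chromosome 5 from 101658139 to 101664996. Pdx1 (ENSMUSG00000029644) is also on chromosome 5, from 147269959 to 147275848. Chromosome 2 further holds Neurod1 (ENSMUSG00000034701, 79452521 to 79456751), Pax6 (ENSMUSG00000027168, 105668900 to 105697364), Nkx2-2 (ENSMUSG00000027434, 147177546 to 147194243) and Foxa2 (ENSMUSG00000037025, 148042877 to 148046969). Isl1 (ENSMUSG00000042258) lies on chromosome 13 from 116298281 to 116309689 and Foxa1 (ENSMUSG00000035451) on chromosome 12 from 57540628 to 57546916.

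Studies of SRSF2 have found that it binds RNA at CCNG and GGNG, and those of SRSF1 that it favours purine-rich sites such as GGAGA and GAAGAA. The coding sequences of the genes were searched for these letters on the transcript's strand only, with overlapping matches each counted, and CCNG and GGNG matches may overlap one another and GGAGA. CCNG or GGNG was found in 99.9% of 21671 coding sequences and GGAGA or GAAGAA in 90.8%. Mafa held 105 and Insm1 102 CCNG or GGNG matches per kb of coding sequence, above 99.8% of coding sequences in either case, against a median of 40.8. Pdx1 followed with 81.0 matches per kb, then Foxa1 (71.2), Nkx2-2 (65.9), Nkx6-1 (59.4), Foxa2 (56.6), Pax6 (48.9), Isl1 (45.8) and Neurod1 (41.1). This order was in part that of the read ratios below. Mafa and Insm1 had the most matches and stood highest in siSRSF1, and Pax6, Isl1 and Neurod1 had the fewest and stood below siNC. In siSRSF2, Mafa (1.90 of siNC) stood below Foxa1 (2.84), Insm1 (2.45) and Nkx6-1 (2.10), which had fewer matches. Pdx1 had more matches than Nkx6-1 but lay closer to siNC. The part of match density in the ratios was not tested. For GGAGA or GAAGAA the order was different, with 6.69 matches per kb in Isl1, 5.48 in Nkx6-1, 2.79 in Mafa, 1.28 in Insm1 and 0 in Foxa1 and Foxa2, against a median of 3.38. CCNG and GGNG consist mostly of G and C, so their density is not independent of GC content, and a match is a description of the letters and does not show binding.

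The stretch of 90 coding bases inside 1 exon with the most CCNG or GGNG matches is shown for the 3 members with the highest GC content and the 3 with the lowest, with the matched letters in capitals (GENCODE M21 transcripts, GRCm38, 5′ to 3′ on the coding strand). The stretch held 20 matches in Mafa and 17 in Insm1, against 11 in Nkx6-1, Neurod1 and Isl1 and 9 in Pax6. Nkx6-1 thus equalled Neurod1 and Isl1 in this count. Over the whole coding sequence Nkx6-1 held more matches per kb (59.4) than Neurod1 (41.1) and Isl1 (45.8). In Neurod1 many of the capitals lie in repeats of GAG, and 55.6% of that stretch is G or C, against 88.9% in Mafa.
Mafa, chr15:75747624-75747713, minus strand: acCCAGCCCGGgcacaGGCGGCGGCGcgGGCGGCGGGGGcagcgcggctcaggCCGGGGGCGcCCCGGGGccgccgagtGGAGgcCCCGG
Insm1, chr2:146223016-146223105, plus strand: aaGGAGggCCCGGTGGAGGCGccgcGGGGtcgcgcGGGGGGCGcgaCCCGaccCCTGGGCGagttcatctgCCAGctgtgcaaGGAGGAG
Nkx6-1, chr5:101663959-101664048, minus strand: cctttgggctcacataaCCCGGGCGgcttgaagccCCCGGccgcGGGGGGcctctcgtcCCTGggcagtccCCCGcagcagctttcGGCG
Pax6, chr2:105683842-105683931, plus strand: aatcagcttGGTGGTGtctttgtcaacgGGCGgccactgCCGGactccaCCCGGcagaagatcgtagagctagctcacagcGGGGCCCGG
Isl1, chr13:116305263-116305352, minus strand: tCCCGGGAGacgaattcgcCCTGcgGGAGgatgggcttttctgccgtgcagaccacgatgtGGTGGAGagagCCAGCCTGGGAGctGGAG
Neurod1, chr2:79454807-79454896, minus strand: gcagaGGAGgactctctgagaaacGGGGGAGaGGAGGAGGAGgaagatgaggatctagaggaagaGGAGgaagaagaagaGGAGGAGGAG

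Levels were compared between genes by the authors' FPKM, which divides reads by gene length and library total. Pdx1, the homeodomain factor needed for pancreas formation and insulin transcription, had 236, 212 and 187 FPKM in siSRSF1, siSRSF2 and siNC. Mafa, the leucine zipper factor of mature beta cells, had 323, 256 and 131 FPKM. Mafa was thus above Pdx1 in both siRNA libraries and below it in siNC. Within a library this comparison does not depend on scaling. The ratio of Mafa to Pdx1 per length was 1.37 (1.33 to 1.41) in siSRSF1, 1.21 (1.17 to 1.25) in siSRSF2 and 0.700 (0.673 to 0.729) in siNC, for a pair chosen after the values were seen. These ratios were not corrected for transcript GC content, which was 65.0% in Mafa and 55.7% in Pdx1. The GC trend in the ratios to siNC, described below, was 1.40-fold at Mafa and 1.08-fold at Pdx1 in siSRSF1. In siSRSF2 the trend was 1.36-fold and 1.04-fold.

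The order of the other genes also differed between the siRNA libraries and siNC. In siSRSF1 and siSRSF2 the order after Mafa and Pdx1 was Nkx6-1, Insm1, Neurod1 and Isl1. In siNC the order was Pdx1, Mafa, Neurod1, Nkx6-1, Isl1 and Insm1, and the counting intervals of Mafa (131 FPKM) and Neurod1 (124 FPKM) overlapped, so these neighbours were not separated. Pax6, Foxa2 and Nkx2-2 followed in each library, between 29.9 and 41.7 FPKM in siSRSF1, between 36.1 and 40.3 in siSRSF2 and between 21.5 and 41.3 in siNC. Foxa2 was not separated from Pax6 in siSRSF1, nor from Nkx2-2 or Pax6 in siSRSF2. Foxa1 was last, with 0.436, 0.921 and 0.308 FPKM from 21, 45 and 13 reads, below the median of detected genes, which was 4.40, 5.57 and 5.01 FPKM. The other 9 genes lay above at least 84.7% of detected genes in each library.

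**Figure D1:**
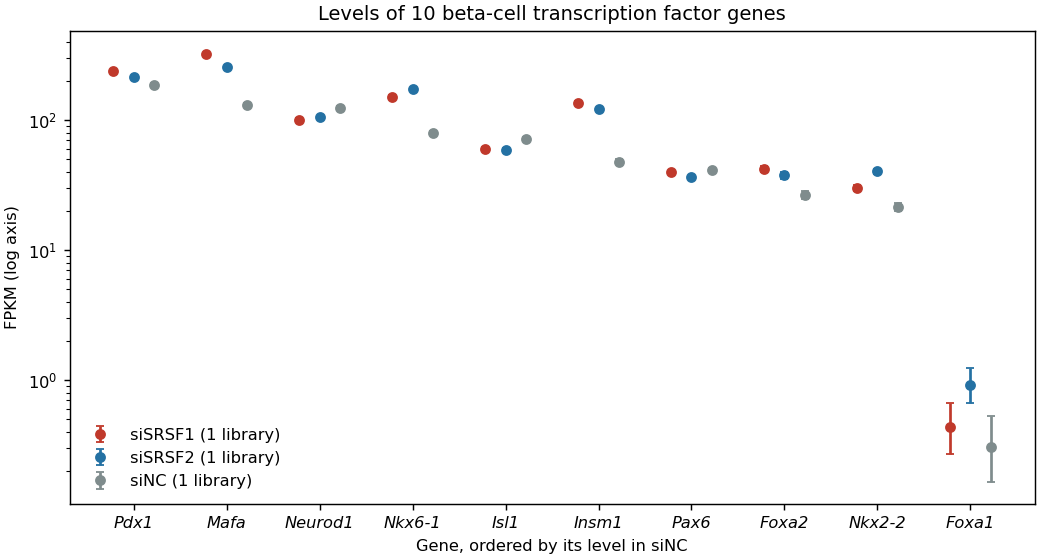
FPKM of the 10 genes on a log axis, in siSRSF1 (red), siSRSF2 (blue) and siNC (grey), 1 library each, with exact Poisson 95% intervals of the read counts. Mafa, Insm1 and Nkx6-1 lie higher in both siRNA libraries than in siNC, Neurod1 and Isl1 lie lower, and Foxa1 lies below 1 FPKM in each library.

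The length in the authors' table is 11694 bases for Pax6, against 2869 bases for the transcript used here. With the length of 1 transcript per gene, a choice made after seeing the data, Pax6 would have 160.9, 147.2 and 168.5 FPKM and stand at position 3, 4 and 2 of the 10 genes, in place of 8, 9 and 7. The order of Mafa above Pdx1 in the siRNA libraries and below it in siNC did not change.

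Between libraries, reads were compared after scaling, and a call needed a difference of 2-fold or more together with an interval that excluded 1. Against siNC, Insm1 was higher in both siRNA libraries, Mafa in siSRSF1, and Nkx6-1 and Foxa1 in siSRSF2, and no listed gene was called lower. Insm1 stood at 2.84 in siSRSF1 and 2.45 in siSRSF2, while Neurod1 stood at 0.803 and 0.821. The list therefore split into genes above siNC and genes below it. In siSRSF1, 2 of 10 were called higher, against 2.4% of the 11602 genes compared, and 0 were called lower, against 1.2%. In siSRSF2, 3 of 10 were called higher, against 2.51% of 11611 genes, and 0 were called lower, against 1.04%. Foxa1, 1 of these 3, reached the minimum of 20 reads only through the siRNA libraries, and without it 2 of 9 were called higher in each. Intervals lay above 1 for 6 genes and below 1 for 3 in siSRSF1, against 27.2% and 25.5% of all genes compared, and for 7 and 3 in siSRSF2, against 28.1% and 25.4%. The median log2 ratio of the 10 was 0.48 in siSRSF1 and 0.66 in siSRSF2, beside 0.00 and 0.02 over all genes compared. Without Foxa1 the median was 0.48 in siSRSF1 and 0.45 in siSRSF2. Both comparisons use the same siNC library, so any error in siNC enters both. In bulk RNA, fewer cells expressing a gene and less of its RNA per cell cannot be told apart.

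**Figure D2:**
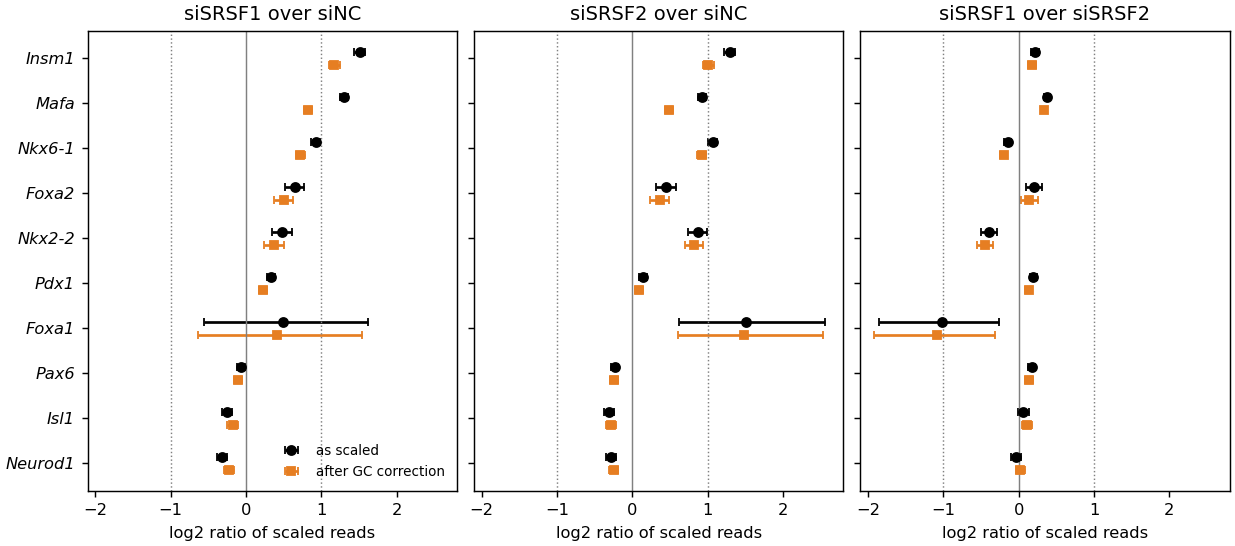
Log2 ratios of scaled reads with 95% counting intervals for siSRSF1 over siNC, siSRSF2 over siNC and siSRSF1 over siSRSF2, as scaled (black) and after correction for transcript GC content (orange), with dotted lines at 2-fold. As scaled, Insm1, Mafa and Nkx6-1 lie highest against siNC apart from Foxa1 in siSRSF2. Pax6, Isl1 and Neurod1 lie left of 0 against siNC. In the direct comparison the scaled points other than Foxa1 lie between -0.39 and 0.38. After GC correction Nkx2-2 (0.82) lies higher than Mafa (0.48) in siSRSF2 over siNC, and Nkx2-2 lies at -0.45 in the direct comparison.

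Among the activators of the insulin gene, the direction differed from gene to gene. Mafa had 12807 reads in siSRSF1, 10309 in siSRSF2 and 4555 in siNC. Its ratio to siNC was 2.47 (2.38 to 2.55) in siSRSF1, which was called, and 1.90 (1.83 to 1.97) in siSRSF2, which was not. Correction for GC content gave 1.77 and 1.40 and ended the call in siSRSF1. Pdx1 had 7366, 6717 and 5126 reads, and its ratio was 1.26 (1.22 to 1.31) in siSRSF1 and 1.10 (1.06 to 1.14) in siSRSF2. Each Pdx1 interval lay above 1, as is common among all genes compared at this depth (the percentages above). Neurod1, a bHLH factor that pairs with E proteins at E-boxes, had 3932, 4203 and 4296 reads, and 201 of its exonic bases are shared with Cerkl. Its ratios of 0.803 (0.769 to 0.838) and 0.821 (0.787 to 0.857) lay below siNC and short of the size rule.

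Isl1 and Pax6 also lay at or below siNC. Isl1, a LIM homeodomain factor that works with the adaptor LDB1, had 3438, 3435 and 3584 reads, with ratios of 0.841 (0.803 to 0.882) in siSRSF1 and 0.805 (0.768 to 0.843) in siSRSF2. Pax6, a paired and homeodomain factor of islet hormone genes, had 6682, 6202 and 6134 reads, with ratios of 0.955 (0.923 to 0.989) and 0.849 (0.819 to 0.879). In siSRSF1, correction for gene length gave 1.01 for Pax6, on the other side of 1. Neurod1, Isl1 and Pax6 all stayed within a 1.5-fold difference of siNC.

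The repressors of other cell programmes, Insm1, Nkx6-1 and Nkx2-2, lay above siNC in each siRNA library. Insm1, a zinc finger factor of endocrine differentiation, had 6103, 5486 and 1882 reads, with ratios of 2.84 (2.70 to 2.997) in siSRSF1 and 2.45 (2.32 to 2.58) in siSRSF2. These were the 122nd and 159th highest among all genes compared. GC correction gave 2.26 and 2.01 and kept both calls, the second by a small margin. Nkx6-1, a homeodomain factor that sets the beta-cell against the alpha-cell programme, had 6850, 7902 and 3165 reads, with ratios of 1.90 (1.82 to 1.98) and 2.10 (2.01 to 2.18). The second was called, and GC correction brought it to 1.89 and ended the call. Nkx2-2, another homeodomain factor, had 1245, 1702 and 784 reads, with ratios of 1.39 (1.27 to 1.52) and 1.82 (1.67 to 1.99), neither of which was called. An antisense gene, Nkx2-2os, shares 278 of its exonic bases, and its reads cannot be told apart from those of Nkx2-2 without a known strand setting.

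The same reads can be set side by side within each library, which restates the ratios above in levels and adds no further evidence. The level of Insm1 per length was 2.27 (2.17 to 2.36) times that of Isl1 in siSRSF1 and 2.04 (1.95 to 2.13) times in siSRSF2, against 0.671 (0.634 to 0.709) times in siNC. Nkx6-1 stood at 1.52 (1.46 to 1.58) and 1.64 (1.57 to 1.70) times Neurod1 in siSRSF1 and siSRSF2, against 0.641 (0.612 to 0.671) times in siNC. These pairs were chosen after the values were seen, from genes high and low against siNC.

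Of the pioneer factors, Foxa2 carried nearly all reads. Foxa2 had 1432, 1302 and 802 reads in siSRSF1, siSRSF2 and siNC, and ratios to siNC of 1.57 (1.44 to 1.71) and 1.36 (1.25 to 1.49). Foxa1 had 21, 45 and 13 reads. Its ratio was 1.40 (0.677 to 3.08) in siSRSF1, where the interval includes 1, and 2.84 (1.54 to 5.87) in siSRSF2, where it was called higher. The width of these intervals shows how little 13 reads can fix. With a 1.5-fold rule, 4 of the 10 genes were called higher in siSRSF1 (Mafa, Nkx6-1, Insm1 and Foxa2), against 6.09% of all genes compared, and 5 in siSRSF2 (Mafa, Nkx6-1, Nkx2-2, Insm1 and Foxa1), against 7.22%.

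Set directly against each other, the siRNA libraries differed in 1 of the 10 genes by the 2-fold rule. Foxa1, at 0.493 of siSRSF2 in siSRSF1 (0.276 to 0.836), was called lower and none was called higher, against 2.4% of 11705 genes called lower and 1.96% called higher. That call rests on 21 and 45 reads, and a prior of 2 reads ended it. Mafa was higher in siSRSF1 than in siSRSF2, with a ratio of 1.30 (1.26 to 1.33), and Nkx2-2 was lower, with a ratio of 0.764 (0.710 to 0.823). Insm1 (1.16), Foxa2 (1.15), Pdx1 (1.15), Pax6 (1.13) and Nkx6-1 (0.906) had intervals that exclude 1, which makes 5 genes above 1, against 29.0% of all genes compared, and 3 below it, against 29.1%. The intervals of Isl1 (1.05, 0.997 to 1.10) and Neurod1 (0.977, 0.936 to 1.02) include 1. Apart from Foxa1, the 9 ratios lay between 0.764 and 1.30.

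GC content moved with these ratios. Over all genes compared, the log2 ratio had a Spearman rho with transcript GC content of 0.34 in siSRSF1 and 0.17 in siSRSF2. The median log2 ratio in siSRSF1 was -0.14 for genes in the bottom decile of GC content and 0.23 for those in the top decile, and in siSRSF2 it was -0.05 and 0.20. Across the 10 listed genes rho was 0.95 in siSRSF1 and 0.68 in siSRSF2, as a description over genes that share their libraries and differ in read depth. Mafa lay above 99.6% of compared genes in GC content and Insm1 above 98.1%, where few genes lie. The lowess trend there used a fraction of 0.3 of the genes, so it also drew on genes of lower GC content. The trend that was divided out at the GC content of Mafa was 1.40-fold in siSRSF1 and 1.36-fold in siSRSF2. The 41 and 45 genes between 64% and 66% GC had median log2 ratios of 0.65 and 0.74, which are larger differences than those divided out. The log2 ratio of Mafa was 1.30 in siSRSF1, above the upper quartile of those genes (1.18). In siSRSF2 the Mafa value was 0.93, between their quartiles (0.33 and 1.20). After the correction, 1 of the 10 genes (Insm1) was called higher in siSRSF1, against 1.97% of all genes compared, and 2 (Insm1 and Foxa1) in siSRSF2, against 2.19%. The median of the 10 was then 0.39 and 0.42. Whether GC content takes part in the higher ratios of Mafa, Insm1 and Nkx6-1 was not tested.

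**Figure D3:**
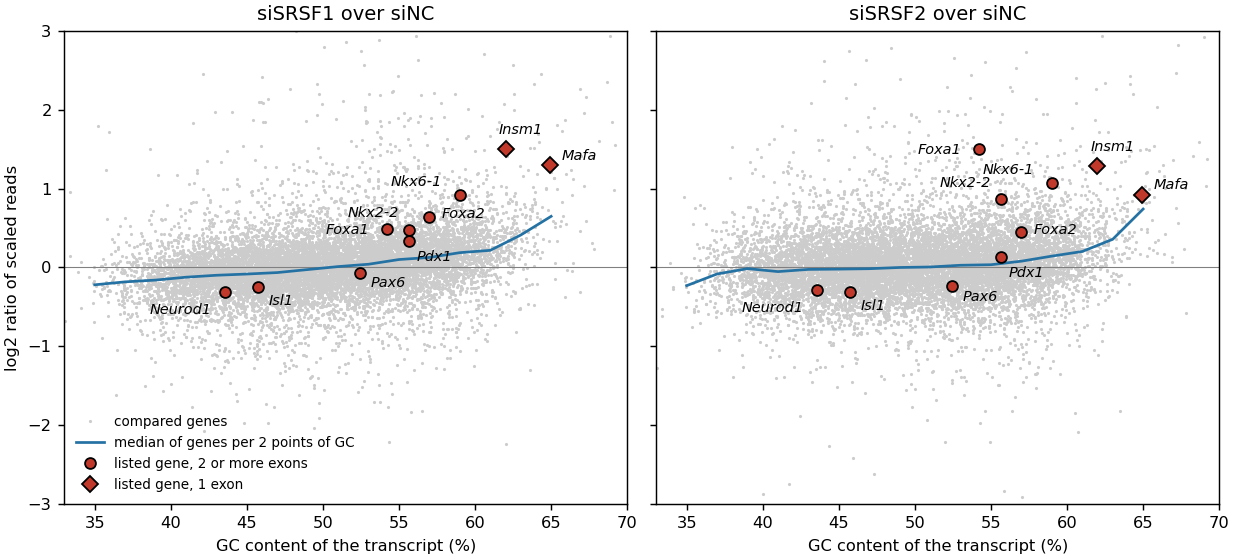
Log2 ratio of scaled reads against transcript GC content (%) for siSRSF1 over siNC and siSRSF2 over siNC, with all compared genes in grey (those beyond 3 on the log2 axis or outside the GC range shown are not drawn), their median per 2 points of GC as a blue line, and the 10 genes in red. Neurod1 and Isl1 lie at low GC and below 0, while the genes with 1 exon, Insm1 and Mafa (diamonds), lie at the high end of GC and above the line.

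The number of exons moved with the calls as well. Insm1 and Mafa belong to the 269 coding genes compared in siSRSF1 whose transcript has 1 exon, of which 34 (12.6%) were called higher, against 241 (2.13%) of 11303 genes with more exons. In siSRSF2 the numbers were 27 (10.2%) of 264 and 262 (2.31%) of 11318. The median log2 ratio of the genes with 1 exon was 0.13 in siSRSF1 and 0.12 in siSRSF2, and that of the others 0.00 and 0.02. After GC correction 25 (9.29%) and 21 (7.95%) of the genes with 1 exon were called higher, against 199 (1.76%) and 231 (2.04%) of the others. The part of exon number in the ratios of Insm1 and Mafa was not tested.

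The ratios of other islet transcription factors were centred near siNC. Of 42 such genes, 28 were compared in siSRSF1, with a median log2 ratio of -0.09. Of these, 2 were called higher and 1 lower, against 2.4% and 1.2% of all genes compared. In siSRSF2, 27 were compared, with a median of 0.05, 1 called higher and 1 lower, against 2.51% and 1.04%. Nkx6-2, the paralog of Nkx6-1, was higher in each siRNA library, with 111 reads in siSRSF1, 102 in siSRSF2 and 29 in siNC, and ratios of 3.32 (2.21 to 5.24) and 2.92 (1.94 to 4.63). Isl2, the paralog of Isl1, was higher in siSRSF1 at 2.79 (1.43 to 6.25), from 36 and 11 reads, and it reached 20 reads in siSRSF1 alone of the pair. Esrrg, an orphan nuclear receptor of mature beta cells, was lower in siSRSF1 at 0.463 (0.373 to 0.569). Bhlha15, which encodes the secretory cell factor MIST1, was lower in siSRSF2 at 0.140 (0.109 to 0.176). Lower ratios short of the rule were those of Nr4a1 (0.569) and Etv1 (0.663) in siSRSF1 and Xbp1 (0.624) and Hnf4a (0.748) in siSRSF2, and higher ones those of Gata4 (1.31) in siSRSF1 and Gata4 (1.36) and Myt1 (1.32) in siSRSF2.

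Against siNC, none of the cofactors was called in either siRNA library. Of 31 genes, 30 were compared in each case, with a median log2 ratio of 0.12 in siSRSF1 and 0.17 in siSRSF2. Over all genes compared, 2.4% were called higher and 1.2% lower in siSRSF1, and 2.51% and 1.04% in siSRSF2. A list of 30 with none called lies near these shares. Tcf3, which encodes E proteins that pair with NEUROD1, stood at 1.69 (1.51 to 1.90) in siSRSF1. NKX2-2 is known to recruit Groucho corepressors, and the log2 ratios of their genes in siSRSF1 and siSRSF2 were 0.35 and 0.79 for Tle1, -0.16 and 0.04 for Tle2, 0.56 and 0.55 for Tle3, -0.22 and 0.96 for Tle4 and 0.33 and 0.36 for Tle5. The family thus had no common direction in siSRSF1. Between the siRNA libraries 2 of 30 cofactors were called, both lower in siSRSF1 than in siSRSF2, against 2.4% of all genes compared. They were Tle4 at 0.442 (0.365 to 0.530) and Id4, an inhibitor of bHLH factors, at 0.462 (0.342 to 0.613). Ssbp2, which stabilises the LDB1 complex of LIM factors, stood at 1.27 in siSRSF1 and 1.63 in siSRSF2. Below siNC lay the acetyltransferase gene Kat2b (0.610) and the homeodomain partner Meis2 (0.661) in siSRSF1, and Rcor1 (0.687) and Tcf4 (0.860) in siSRSF2.

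A list of beta-cell genes that includes known targets of these factors stayed centred near siNC. Of 32 such genes, 30 were compared, with a median log2 ratio of 0.06 in siSRSF1 (2 called higher, 0 lower) and 0.07 in siSRSF2 (1 called higher, 1 lower). Over all genes compared, the shares called higher and lower were 2.4% and 1.2% in siSRSF1 and 2.51% and 1.04% in siSRSF2. Pcsk1n, the gene of the proSAAS granule protein, rose in each siRNA library, to ratios of 4.64 and 6.67. Slc2a2, which encodes the glucose transporter GLUT2 and is bound by PDX1, had 114 reads in siSRSF1, 7 in siSRSF2 and 42 in siNC, and was called higher in siSRSF1 at 2.37 (1.66 to 3.48) and lower in siSRSF2 at 0.149 (0.0530 to 0.314). Between the siRNA libraries its ratio was 15.9 (7.996 to 43.3). The called directions were opposite, while Pdx1, Mafa and Nkx6-1 lay above siNC in each. In siSRSF1 and siSRSF2, Ins1 stood at 1.26 and 1.43, and Ins2, which had more reads, at 1.01 and 1.36. Iapp stood at 0.821 and 0.722. Trpm5, a cation channel gene, stood at 1.88 and 1.42, and the prohormone convertase gene Pcsk2 at 0.645 and 0.631. The lowest others in siSRSF1 were Prlr (0.551) and Ttr (0.669), and in siSRSF2 the zinc transporter gene Slc30a8 (0.527) and Cltrn (0.638).

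**Figure D4:**
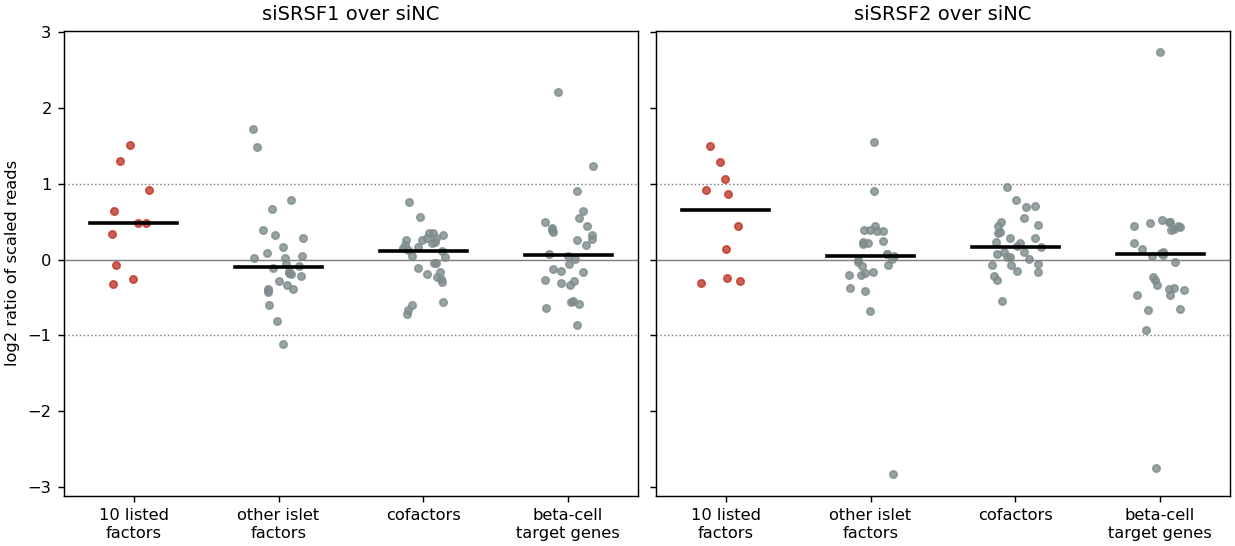
Log2 ratio of scaled reads for siSRSF1 over siNC and siSRSF2 over siNC in the 10 listed factors (red) and in other islet factors, cofactors and target genes (grey), 1 point per compared gene, with the median as a bar and dotted lines at 2-fold. The bar of the 10 genes lies at 0.48 and 0.66 (0.48 and 0.45 without Foxa1), and the bars of the other lists lie between -0.09 and 0.17.

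Among 6440 genes with at least 500 reads in some library, the pairs of log2 ratios to siNC nearest to those of a called gene were found by Euclidean distance over these 2 values. They belonged to Vstm2l (0.10) and CAAA01118383.1 (0.14) for Insm1, to Emc6 (0.17) and Trnp1 (0.20) for Mafa, to Fam122a (0.04) and Zfp622 (0.07) for Nkx6-1, and to N4bp2l1 (0.02) and Mdfic (0.20) for Foxa1. A likeness over 2 ratios that share the siNC library is a description only.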

How the data were processed

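The deposited table gives, per the file headers, a read count and an FPKM for each Ensembl gene and library. The authors' counts are whole and not normalized. The authors' FPKM equals the count divided by the table's length and the column total, within 0.00045% in every library. The submitters' processing notes list Bowtie2 2.4.2 and the build mm10 or GRCm38. The sources used here do not give the counting tool, strand setting or annotation. Neurod1 shares 201 exonic bases with Cerkl, which had 215, 186 and 137 reads in siSRSF1, siSRSF2 and siNC, and antisense genes overlap exons of Nkx2-2 (278 bases) and Neurod1 (154 bases).

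Counts of lines sharing a symbol were summed. Libraries were scaled by the trimmed mean of M values in edgeR 4.0.16 (R 4.3.3), with factors of 0.990, 1.02 and 0.991 for siSRSF1, siSRSF2 and siNC. Ratios used a prior of 0.5 reads, intervals were exact Clopper-Pearson intervals (scipy 1.17.1), and genes needed 20 reads in 1 library of a pair. Intervals cover counting error only, and 3 reads equal 0.209, 0.200 and 0.239 CPM. Transcript GC content and exon number come from 1 GENCODE M21 transcript per gene (the longest APPRIS principal transcript, otherwise the longest coding one, otherwise the longest), and 99.5% of symbols matched. GC correction divided out a lowess trend (fraction 0.3, 3 iterations, statsmodels 0.14.6). The procedure was tested on simulated data that held counting error only and no GC trend. That test could not check the removal of a GC trend or the spread between replicates. Alternatives were DESeq2 1.42.0 size factors, plain totals, totals without the insulin genes, other minimums, prior and size rule, and GC and length correction.

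The members and lists were chosen with earlier results of these data known. Named from each further list were the called genes and the 3 highest and 3 lowest ratios to siNC where either library held 100 reads or more, and, beside each called member, the 2 genes of most similar ratios. Some genes that meet this rule are not reported here. Cck, Cd68, Sst, Ppy, Id4, Ins2, Iapp, further Tle genes and the marker genes at 0 reads were named after their values were seen.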

Additional observations from a re-analysis of the deposited data

How the results depend on the processing

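No paired analysis was possible because each group has 1 library. Of the 30 member ratios (10 genes in 3 comparisons), none of the called ones changed direction under any alternative. DESeq2 size factors, plain totals, totals without the insulin genes, no minimum of reads and length correction changed no call of a member. GC correction left 1 member called in siSRSF1, against 2 as reported, and ended the calls of Mafa in siSRSF1 and Nkx6-1 in siSRSF2. It also moved Neurod1 in siSRSF1 over siSRSF2 to 1.02, and length correction moved Pax6 in siSRSF1 to 1.01, both on the other side of 1. The ratio of Insm1 ranged from 2.26 to 2.84 in siSRSF1 and from 2.01 to 2.55 in siSRSF2, and that of Mafa from 1.77 to 2.47 and from 1.40 to 1.98.

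A minimum of 100 reads and a prior of 2 reads each left 0 members called between the siRNA libraries, against 1, since Foxa1 was then not compared or not called. The minimum of 100 reads also removed Foxa1 from the members called in siSRSF2, leaving 2 of 3, and Isl2 from the other islet factors called in siSRSF1, leaving 2 of 3. With the 1.5-fold rule, 4 members were called in siSRSF1 and 5 in siSRSF2, against 2 and 3. The same rule called 5 other islet factors in siSRSF1 (2 higher, 3 lower), against 3. It called 4 cofactors in siSRSF1 (1 higher, 3 lower) and 4 in siSRSF2 (all higher), against 0. It called 6 target genes in siSRSF1 (4 higher, 2 lower) and 5 in siSRSF2 (1 higher, 4 lower), against 2 in each. Over all genes compared, this rule called 6.09% higher in siSRSF1 and 7.22% in siSRSF2. The share it called lower is not reported here. Totals without the insulin genes called 1 cofactor in siSRSF2 (Tle4), and a minimum of 100 reads left 1 target gene called there. With the length of 1 transcript, 0 neighbours in the level order overlapped in siSRSF2 and 2 in siNC, against 2 and 1. Depth limits Foxa1 most, since its 13 reads in siNC leave an interval of 1.54 to 5.87.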
